A study of Mus musculus with 9 samples.

Results

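The 10 genes described here, Fabp7, Kcnj10, Glul, Gja1, Slc1a3, Entpd2, Gfap, Ednrb, Apoe and Cdh19, are used as markers of satellite glia, and they were taken by symbol from the 45904 rows of the deposited expression table. All 10 matched a single Ensembl mouse gene identifier and were above 0 in each library. The table comes from messenger RNA sequencing of intact dorsal root ganglia of the sciatic nerve in C57BL/6 mice, 3 groups of 3 libraries each. The aged injury group was 20 to 22 months old and had sciatic nerve injury, the aged sham group was of the same age and had sham surgery, and the young sham group was 8 to 10 weeks old and had sham surgery. Ganglia were taken 24 h after surgery, and each library pooled 2 mice, so a value is the mean of a pool and not of an animal. The sex of the pools was not balanced. The summed level of 4 Y-linked genes, relative to its mean in young sham, was 0 to 0.0426% in aged injury, 69.7, 0 and 0.0323% in aged sham replicates 1 to 3, and 93.0 to 106% in young sham. A difference between the aged and young groups therefore cannot be told apart from one between pools of mostly female and of male RNA.

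Satellite glia are flat cells of the neural crest that wrap the cell bodies of sensory neurons inside the ganglion. They take up potassium and glutamate around the neuron, are coupled to each other through gap junctions, degrade extracellular ATP, and carry lipids. After injury of the nerve they are known to raise the intermediate filament Gfap and their coupling. None of the 10 genes is limited to these cells: Schwann cells also use Cdh19 and, when not myelinating, Gfap, macrophages use Apoe, fibroblasts and vessels use Gja1, and endothelial cells and pigment cells use Ednrb. In RNA from whole ganglia, fewer cells of a type and less RNA per cell cannot be told apart.

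Levels are in FPKM, which divides the fragments of a gene by its length and by the depth of the library, so that genes can be compared per length. In young sham ganglia the 10 markers spanned a range of 2618-fold. Apoe, the lipid carrier that glia and macrophages secrete, had the highest level at 1166 ± 75.2 FPKM (SD, n = 3), above the mean of 99.9% of the 17601 rows that were tested. Fabp7, a fatty acid binding protein of immature and satellite glia, followed at 223 ± 34.8 FPKM, and Glul, the glutamine synthetase that turns glutamate into glutamine, at 103 ± 2.62 FPKM. The middle of the order held the endothelin receptor Ednrb (36.1 ± 5.31 FPKM), the cadherin Cdh19 (26.2 ± 3.46 FPKM), the inwardly rectifying potassium channel Kcnj10 (18.6 ± 1.75 FPKM) and the gap junction protein connexin 43, Gja1 (13.4 ± 2.41 FPKM). At the low end were the ectonucleotidase Entpd2 (4.48 ± 0.407 FPKM), the glutamate transporter Slc1a3 (2.10 ± 0.280 FPKM) and Gfap (0.445 ± 0.130 FPKM). In young sham the libraries of no pair of neighbours in this order overlapped.

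**Figure D1:**
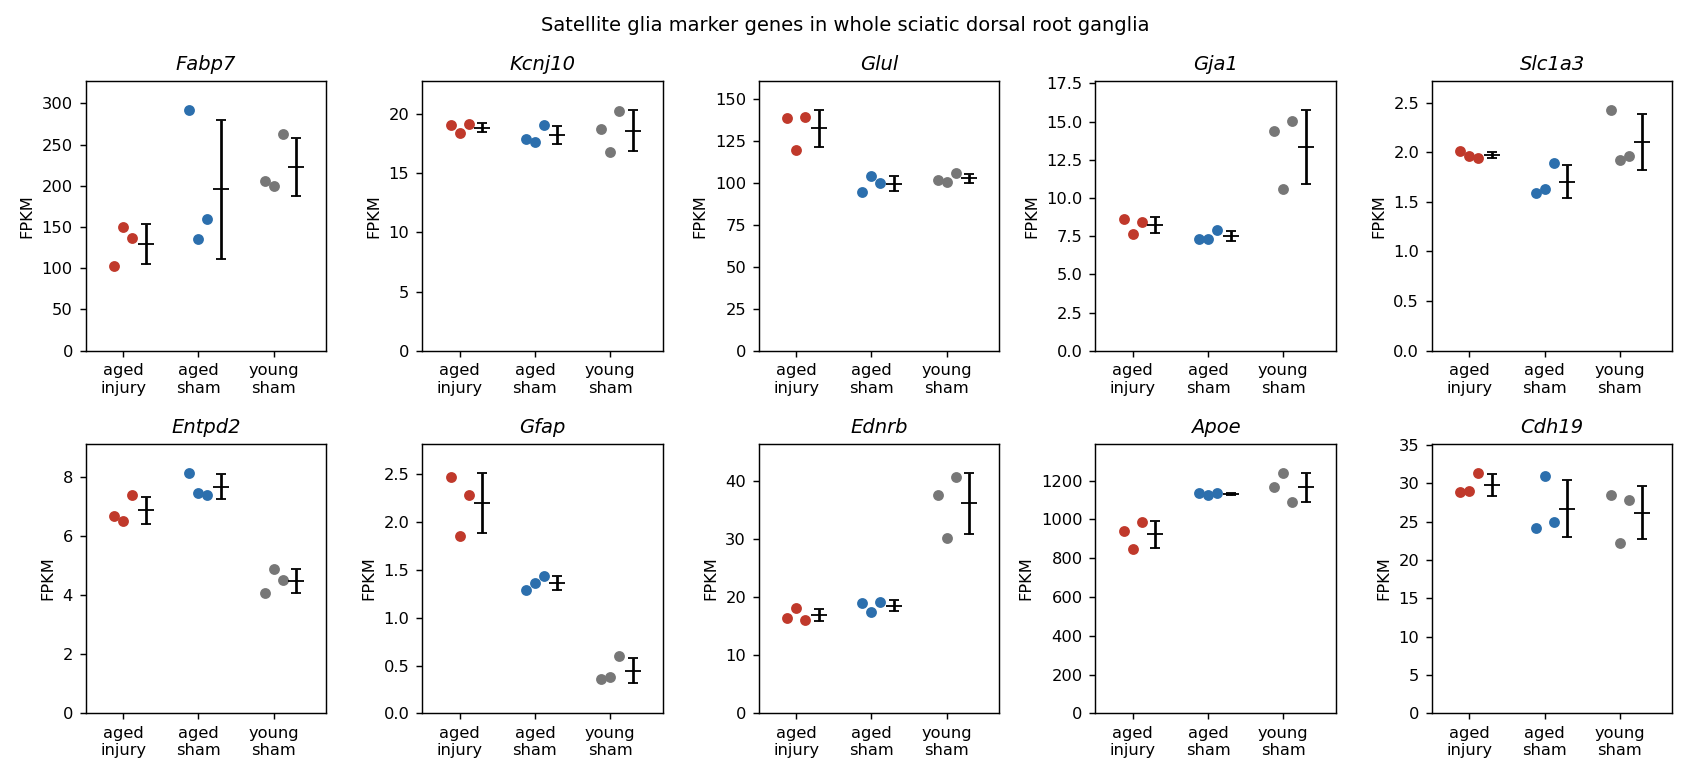
Level of each of the 10 satellite glia markers (FPKM, linear axis from 0) in the 3 libraries of each group; points are libraries, and the bar beside them is the mean ± SD. Ednrb and Gja1 sit lower, and Entpd2 and Gfap higher, in all 6 aged libraries than in the 3 young sham libraries, and Glul is highest in aged injury.

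The order differed in the aged groups. Ednrb stood 4th in young sham, but at 18.5 ± 0.937 FPKM in aged sham it overlapped Kcnj10 (18.2 ± 0.741 FPKM). Entpd2 and Gja1, which stood apart in young sham, overlapped in aged sham at 7.66 ± 0.422 and 7.52 ± 0.330 FPKM. After injury, Glul (132 ± 11.0 FPKM) overlapped Fabp7 (130 ± 24.3 FPKM), and Gfap (2.199 ± 0.315 FPKM) overlapped Slc1a3 (1.97 ± 0.0330 FPKM).

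**Figure D2:**
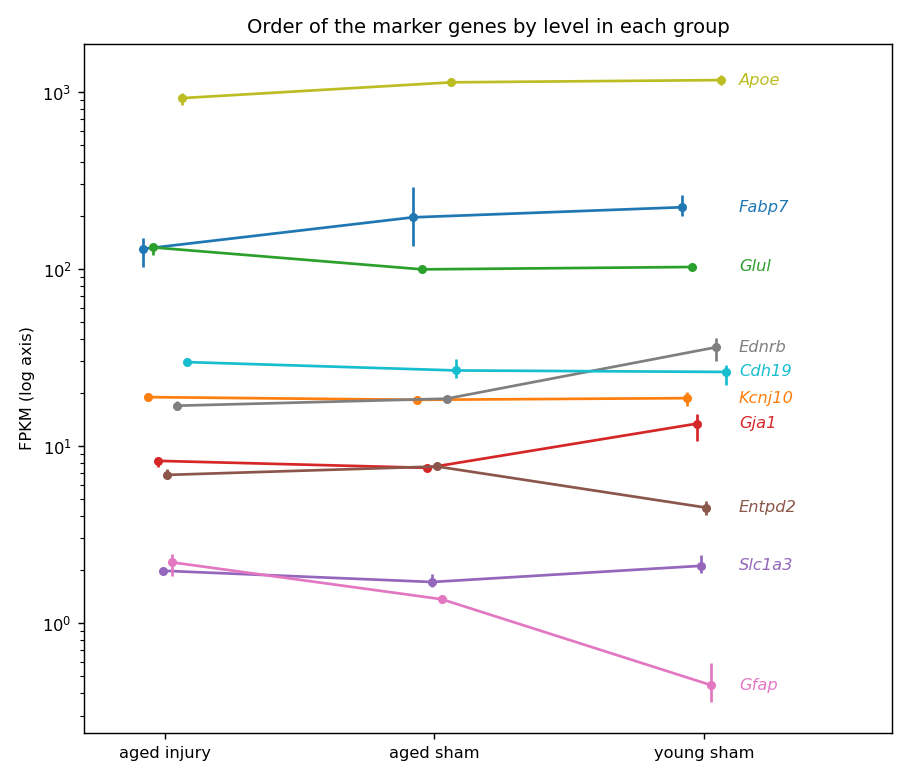
Mean level of each marker in aged injury, aged sham and young sham (FPKM, log axis), with a vertical line from the lowest to the highest library. The lines of Ednrb and Kcnj10 and those of Gja1 and Entpd2 meet in aged sham, and that of Gfap reaches Slc1a3 in aged injury.

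The comparison of aged sham with young sham ganglia asked how the markers differ between these groups in the absence of nerve injury. Below, "with age" names this contrast, which also carries the sex imbalance of the pools. Of the 10 markers, 2 rose (Entpd2 and Gfap), 2 fell (Ednrb and Gja1) and 6 did not pass the test, which was limma's moderated test over 17601 rows with a threshold of 0.05 on the Benjamini-Hochberg adjusted p. Over all rows, 4.02% were called, 2.53% higher and 1.49% lower. For 5 of the 10 markers aged sham and young sham libraries had no overlap, against 29.2% of all rows. The split of all calls moved with the scaling, from 445 higher and 262 lower to 278 higher and 535 lower at equal library medians. The median log2 difference was -0.04 over the markers and 0.05 over all rows tested.

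Ednrb, the receptor for endothelins that satellite glia carry, is encoded on the minus strand of chromosome 14 (103814625 to 103844402, build mm10). It had 18.97, 17.4 and 19.1 FPKM in aged sham, against 37.5, 30.2 and 40.6 FPKM in young sham. Every aged sham library lay below every young one, and young sham replicate 2 was the lowest of its group. The difference was -0.95 on the log2 scale (SE 0.104, limma adjusted p = 0.00762), a 1.93-fold fall.

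Gja1, which forms the gap junction channels between satellite glia, lies on chromosome 10 (56377330 to 56402513). It had 7.33, 7.33 and 7.90 FPKM in aged sham, against 14.4, 10.6 and 15.1 FPKM in young sham, again with no overlap and with young sham replicate 2 as the lowest of its group. The log2 difference was -0.80 (SE 0.124, limma adjusted p = 0.0222), a 1.75-fold fall. This call was lost without aged sham replicate 2 (adjusted p = 0.0745), aged sham replicate 3 (0.0777), young sham replicate 1 (0.101) or young sham replicate 3 (0.0854), with log2 differences of -0.71 to -0.84 in these 4 fits.

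Entpd2, the ectoenzyme on satellite glia that degrades ATP to ADP, lies on chromosome 2 (25395874 to 25401321). It had 8.14, 7.46 and 7.37 FPKM in aged sham and 4.06, 4.88 and 4.505 FPKM in young sham, with no overlap. The rise was 1.70-fold, 0.76 on the log2 scale (SE 0.0881, limma adjusted p = 0.00881). Ednrb and Entpd2 were called in each of the 9 fits that left out 1 library, at adjusted p-values of up to 0.0497.

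Gfap, the intermediate filament of reactive glia, lies on chromosome 11 (102887336 to 102900912). It had 1.29, 1.36 and 1.44 FPKM in aged sham, against 0.360, 0.381 and 0.595 FPKM in young sham. Each aged sham value was above each young one, though the level stayed low. The rise was 2.73-fold, 1.45 on the log2 scale (SE 0.191, limma adjusted p = 0.0151), the largest of the 10 markers in this comparison. The values of this gene were whole multiples of a common step, which corresponds to 70, 64 and 78 fragments in aged sham and 20, 20 and 28 in young sham, known up to a common factor. Exact Poisson intervals (95%) cover counting error only, and hold only if these numbers are the true fragment counts. They were 49.3 to 81.7 for the 64 fragments of aged sham replicate 2 and 18.6 to 40.5 for the 28 of young sham replicate 3. This was the nearest pair in fragments, which are not scaled to depth. In FPKM the nearest aged sham library was replicate 1, whose 70 fragments had an interval of 54.6 to 88.4. Without aged sham replicate 2 or 3 or young sham replicate 1 the call of Gfap was lost (adjusted p = 0.0655, 0.0678 and 0.0630), with log2 differences of 1.45, 1.41 and 1.34.

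**Figure D3:**
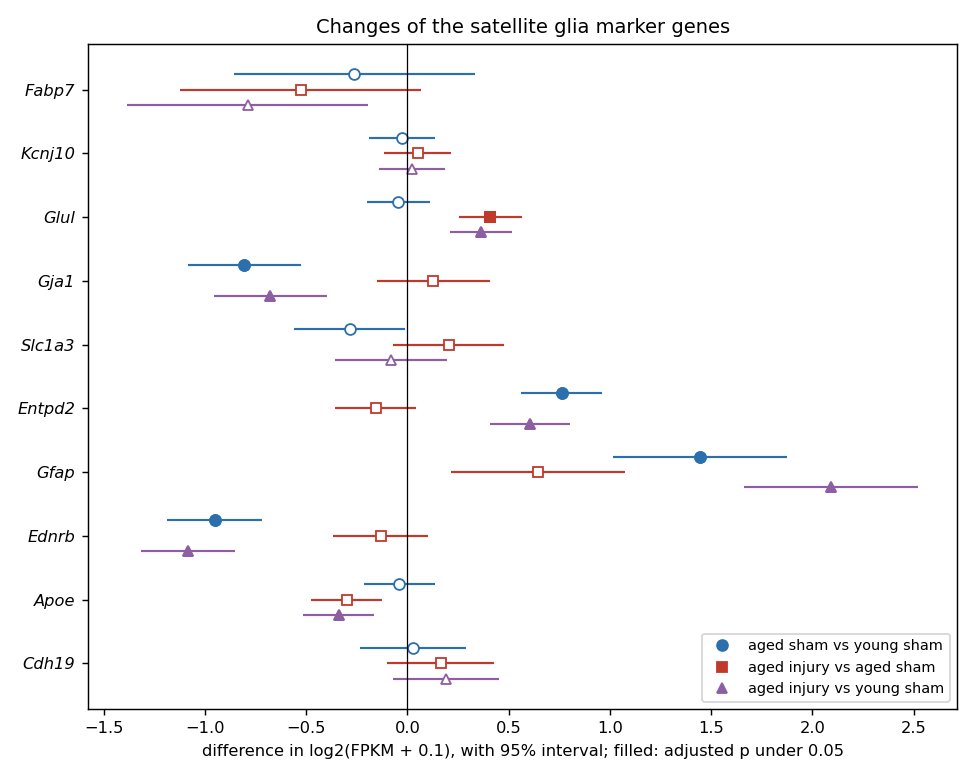
Difference in log2(FPKM + 0.1) of each marker in the 3 comparisons, with its 95% interval from limma; filled symbols passed an adjusted p of 0.05. Ednrb and Gja1 lie left of 0 and Entpd2 and Gfap right of 0 in both comparisons with young sham, and Glul is the single filled symbol of aged injury against aged sham.

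The sequences just before the transcription starts of these 4 genes are shown because the genes differed between aged and young ganglia in opposite directions. Each is the 250 bases upstream of the RefSeq start (GRCm38.p6, the build of mm10), written 5′ to 3′ on the strand of the gene, and capitals mark the AP-1 motif TGANTCA.
Ednrb (chr14:103843702-103843951, minus strand): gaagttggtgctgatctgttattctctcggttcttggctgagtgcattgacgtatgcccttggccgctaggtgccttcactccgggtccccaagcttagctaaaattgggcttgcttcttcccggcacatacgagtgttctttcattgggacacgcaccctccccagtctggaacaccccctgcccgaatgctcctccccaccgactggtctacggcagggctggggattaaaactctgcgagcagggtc
Gja1 (chr10:56377050-56377299, plus strand): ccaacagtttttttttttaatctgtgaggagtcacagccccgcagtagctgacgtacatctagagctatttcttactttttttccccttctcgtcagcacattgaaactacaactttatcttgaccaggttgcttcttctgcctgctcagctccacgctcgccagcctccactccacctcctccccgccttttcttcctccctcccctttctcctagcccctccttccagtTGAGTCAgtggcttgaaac
Entpd2 (chr2:25395624-25395873, plus strand): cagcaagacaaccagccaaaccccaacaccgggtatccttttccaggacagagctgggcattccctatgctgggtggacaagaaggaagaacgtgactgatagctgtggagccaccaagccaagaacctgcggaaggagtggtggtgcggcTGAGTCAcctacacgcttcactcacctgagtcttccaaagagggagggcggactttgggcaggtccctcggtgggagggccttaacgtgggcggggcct
Gfap (chr11:102897201-102897450, minus strand): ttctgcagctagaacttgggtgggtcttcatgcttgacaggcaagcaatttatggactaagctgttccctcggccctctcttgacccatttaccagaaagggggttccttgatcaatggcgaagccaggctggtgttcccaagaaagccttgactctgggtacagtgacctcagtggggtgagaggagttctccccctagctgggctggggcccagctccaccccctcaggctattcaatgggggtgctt
Gja1, which fell, and Entpd2, which rose, each held 1 AP-1 motif, which began 19 bases before the start in Gja1 and 99 bases before it in Entpd2, and the promoters of Ednrb and Gfap held none. The motif was found on either strand in 6.75% of 32841 mouse promoter windows of this length. Also searched on both strands were ACAAAG and ACAATG, the cores of SOX sites (in 16.5% and 10.7% of windows), and the STAT motif TTCCNGGAA (in 0.91%), none of which occurred in these 4 windows. Over the 9 markers with an entry, the SOX cores occurred only in Apoe, once each in 1 of its 3 windows. GC content was 56.8% in Ednrb, 50.0% in Gja1, 59.2% in Entpd2 and 55.6% in Gfap, against a median of 52.4% over all windows. The windows of Ednrb and Gfap lie within the GENCODE gene spans given above, which reach further upstream. A match is a run of letters and not a measured binding site.

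The other 6 markers did not pass the test between aged and young sham. Kcnj10, which buffers potassium, measured 17.9, 17.7 and 19.1 FPKM in aged sham, next to 18.7, 16.8 and 20.3 FPKM in young sham. Its log2 difference of -0.03 had a 95% interval of -0.19 to 0.14. The intervals were -0.20 to 0.11 for Glul, -0.22 to 0.14 for Apoe, whose difference of -0.04 became 0.21 after quantile normalization (adjusted p = 0.229), and -0.24 to 0.29 for Cdh19. Slc1a3, which takes up glutamate, had 1.59, 1.63 and 1.89 FPKM in aged sham and 2.43, 1.92 and 1.96 FPKM in young sham. These groups did not overlap, with a log2 difference of -0.28 and an adjusted p of 0.178.

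Fabp7 was the most variable marker among aged sham libraries, with a coefficient of variation of 43.2%, against 0.429 to 13.9% for the other 9. It had 292, 135 and 159 FPKM in aged sham, against 206, 200 and 263 FPKM in young sham. Aged sham replicate 1 was above all young sham libraries and the other aged sham libraries were below them. The log2 difference was -0.26 with all libraries (adjusted p = 0.554) and -0.59 without aged sham replicate 1 (adjusted p = 0.0998). With the Y-linked level as a covariate, which within the groups varied mainly through aged sham replicate 1, the Fabp7 difference turned to 0.86 (adjusted p = 0.376). Atf3, a gene of injured neurons, also set that library apart, at 95.6 FPKM beside 27.1 and 27.3 FPKM in aged sham replicates 2 and 3. The part of the Y-linked RNA and of Atf3 in its Fabp7 level was not tested further.

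With the 6 sham libraries fitted alone, limma called 0 of the 10 markers (4 at an unadjusted p under 0.05), with adjusted p-values of 0.0629 for Entpd2, 0.0636 for Ednrb, 0.0702 for Gfap and 0.0894 for Gja1. With the Y-linked level as a covariate, an alternative chosen after seeing the data, it also called 0 (5 at an unadjusted p under 0.05), and the log2 differences were -0.82 for Ednrb, -0.78 for Gja1, 0.88 for Entpd2 and 1.40 for Gfap. Within the groups the Y-linked level varied mainly through aged sham replicate 1 (69.7%). The covariate fit therefore rests largely on that library, and its loss of calls cannot tell sex from age.

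Genes of the pathways in which the markers act were taken from lists. Of 12 tested genes of glutamate and glutamine handling, 1 rose with age and 11 did not pass. It was Slc1a2, the glutamate transporter GLT-1, at 1.11, 1.04 and 1.02 FPKM in aged sham and 0.468, 0.392 and 0.382 FPKM in young sham (log2 difference 1.17, limma adjusted p = 0.0167). Slc1a2 and Slc1a3 thus stood on opposite sides, at 1.17 and -0.28. Among 10 connexins and pannexins, Gja1 fell, Gja4, a connexin of vessels, rose by 0.76 on the log2 scale (adjusted p = 0.0377), and 8 did not pass. The median log2 difference of this list was -0.32, and 8 of its 10 genes had an unadjusted limma p under 0.05, in either direction. Among 18 genes of potassium clearance, the channel gene Kcnk1 fell by 0.38 on the log2 scale, the inward rectifier Kcnj4 rose by 0.55, and 16, Kcnj10 among them, did not pass. Besides Entpd2, 1 of 20 genes of extracellular nucleotides rose, Ada, which deaminates adenosine (log2 difference 0.75, adjusted p = 0.0459). Of 7 genes of endothelin signalling, Ednrb fell and 6 did not pass. The endothelin gene Edn1 had a log2 difference of 0.64 (adjusted p = 0.0967), and Edn3 one of -0.56 (adjusted p = 0.199).

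Lipid genes moved in both directions while Apoe did not pass. Of 16 genes of lipoproteins and sterol export, 3 rose, 1 fell and 12 did not pass. The phospholipid transfer protein gene Pltp rose by 0.93 on the log2 scale (adjusted p = 0.0112), Apod, an apolipoprotein of nerve, by 0.74 (adjusted p = 0.0361) and Clu, which encodes clusterin, by 0.44 (adjusted p = 0.0394). The lipoprotein receptor gene Vldlr fell, with a log2 difference of -0.63 (adjusted p = 0.0167). Of 20 genes of fatty acid binding and synthesis, Srebf1, a transcription factor of lipid synthesis, rose by 0.59, the fatty acid elongase gene Elovl6 fell by 0.38 and 18 did not pass. Srebf1 had 16.4, 16.2 and 17.2 FPKM in aged sham and 10.7, 11.7 and 10.6 FPKM in young sham and was called in each of the 9 fits with 1 library left out.

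Of 14 genes of reactive glia, 3 rose with age, 0 fell and 11 did not pass, with a median log2 difference of 0.36. Besides Gfap these were Vim, which encodes vimentin (log2 difference 0.41, adjusted p = 0.0297), and Lcn2, a lipocalin that neutrophils make as well (1.49, adjusted p = 0.0331). Of 12 cadherins and adhesion genes limma called 0 (3 at an unadjusted p under 0.05), with Cdh11 at -0.28 (adjusted p = 0.0535). Of 13 factors of the glial lineage, Sox2 fell (log2 difference -0.31, adjusted p = 0.0474) and 12 did not pass. Sox10, which sets glial identity, was at a log2 difference of 0.23 (adjusted p = 0.102), and S100b, a calcium-binding protein of glia, at -0.00 (adjusted p = 0.993). When each of the 9 libraries was left out in turn, Pltp stayed called in 7 fits, Kcnk1 in 6, Slc1a2 and Vldlr in 5, Apod, Vim and Lcn2 in 3, Gja4, Clu and Elovl6 in 2, Kcnj4 and Ada in 1, and Sox2 in 0.

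Aged injury was set against aged sham to ask what happens to the markers of aged mice 24 h after the nerve is injured. Of the 10 markers, Glul rose, 0 fell and 9 did not pass, where 4.11% of all rows were called, 2.45% higher and 1.65% lower. The groups did not overlap for 4 markers, Glul, Gfap, Slc1a3 and Apoe, against 25.4% of all rows. The median log2 difference of the markers was 0.09, against -0.01 over all rows. Injury itself was visible in the libraries: 6 of 7 genes known to rise in injured sensory neurons were called higher, with Atf3 at 278, 192 and 271 FPKM in aged injury and 95.6, 27.1 and 27.3 FPKM in aged sham.

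Glul, on chromosome 1 (153899944 to 153909723), had 138, 120 and 139 FPKM in aged injury, against 94.6, 104 and 99.9 FPKM in aged sham and 102, 100.5 and 105 FPKM in young sham. All aged injury libraries were above all sham libraries, aged or young. The rise over aged sham was 1.33-fold, 0.41 on the log2 scale (SE 0.0688, limma adjusted p = 0.0153). With aged sham replicate 1, which held Y-linked RNA, left out, the log2 difference was 0.37 and the call was kept (adjusted p = 0.0406). It was lost without aged injury replicate 1 (adjusted p = 0.0759), aged injury replicate 3 (0.0700) or aged sham replicate 3 (0.0632), with log2 differences of 0.38, 0.37 and 0.41. Of the 10 alternatives that changed the processing or the model, 8 kept the call, with a lowest adjusted p of 0.00895. It was lost with the aged injury and aged sham groups fitted alone (adjusted p = 0.0609, the highest of the 10), and the other loss is given in the closing section.

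Gfap had 2.47, 1.85 and 2.28 FPKM in aged injury and 1.29, 1.36 and 1.44 FPKM in aged sham, with no overlap. Its log2 difference of 0.64 (95% interval 0.22 to 1.07) did not pass the correction (adjusted p = 0.1001), and it passed with a pseudocount of 1 (0.43, adjusted p = 0.0493). Apoe had 938, 845 and 984 FPKM in aged injury and 1136, 1127 and 1135 FPKM in aged sham. The aged injury libraries were all lower, by a log2 difference of -0.30 (adjusted p = 0.0698). It was called lower when the rows tested had a mean of at least 1 FPKM (adjusted p = 0.0481). Slc1a3 was at 2.01, 1.97 and 1.94 FPKM in aged injury, above 1.59, 1.63 and 1.89 FPKM in aged sham, with an adjusted p of 0.404.

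The markers that differed with age showed no called change after injury. Ednrb was at 16.5, 18.1 and 16.1 FPKM in aged injury, and its log2 difference from aged sham of -0.13 had a 95% interval of -0.36 to 0.10. Gja1 was at 8.63, 7.64 and 8.44 FPKM (0.13, interval -0.15 to 0.41) and Entpd2 at 6.69, 6.51 and 7.38 FPKM (-0.16, interval -0.36 to 0.04). Kcnj10 was at 18.4 to 19.2 FPKM in aged injury (0.05, interval -0.11 to 0.21). Cdh19 had a log2 difference of 0.16 (interval -0.10 to 0.43). Fabp7 was at 103, 150 and 136 FPKM in aged injury. Its difference from aged sham was -0.53 (adjusted p = 0.315), and -0.20 without aged sham replicate 1 (adjusted p = 0.620).

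Other genes of glutamine handling rose with Glul after injury. Of 12 tested, 3 rose, 0 fell and 9 did not pass. Slc38a1 and Slc38a2, transporters that carry glutamine into cells, rose by 0.61 (adjusted p = 0.00451) and 0.37 (adjusted p = 0.0171) on the log2 scale. Slc38a1 had 16.3, 13.7 and 15.6 FPKM in aged injury and 9.76, 10.0 and 9.87 FPKM in aged sham, and kept its call in each of the 9 fits with 1 library left out. Slc38a2 kept it in 5 of them. Sensory neurons also express these transporters, and the cells behind these levels cannot be told apart in whole ganglia.

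Of 14 genes of reactive glia, 4 rose after injury, 0 fell and 10 did not pass, with a median log2 difference of 0.46. Among those that did not pass, Lcn2, called higher with age, was lower after injury. It had 6.21, 2.63 and 4.28 FPKM in aged injury and 7.63, 7.44 and 10.4 FPKM in aged sham, with no overlap. The hyaluronan receptor gene Cd44 rose by 0.76 (adjusted p = 0.00529), with 63.3, 54.4 and 54.9 FPKM in aged injury and 37.9, 34.4 and 29.8 FPKM in aged sham. Socs3 and Stat3, of cytokine signalling, rose by 0.96 (adjusted p = 0.0283) and 0.32 (adjusted p = 0.0489), and the protease inhibitor gene Serpina3n by 0.59 (adjusted p = 0.0391). These genes are also induced in injured sensory neurons, whose injury genes moved with the group. The cells behind the rise of these genes were not tested and cannot be told apart in whole ganglia. Leaving out each library in turn, Cd44 stayed called in 9 of 9 fits, Socs3 in 3, Serpina3n in 2 and Stat3 in 1.

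Among the other pathways, the sterol exporter gene Abca1 rose by 0.60 on the log2 scale (adjusted p = 0.0169) and the other 15 of 16 lipoprotein genes did not pass. Gjb1, the connexin of myelinating Schwann cells, fell by 0.49 (adjusted p = 0.0477), the potassium channel gene Kcnj12 by 0.44 (adjusted p = 0.0283) and the growth factor gene Nrg1, which neurons present to Schwann cells, by 0.32 (adjusted p = 0.0118). Leaving out each library in turn, Abca1 stayed called in 6 of 9 fits, Gjb1 in 1, Kcnj12 in 3 and Nrg1 in 8. Limma called 0 of 20 genes of extracellular nucleotides (4 at an unadjusted p under 0.05), 0 of 7 of endothelin signalling (2), 0 of 20 of fatty acid binding and synthesis (5) and 0 of 12 cadherins and adhesion genes (2). Nt5e, which makes adenosine from AMP downstream of Entpd2, came nearest in its list (0.28, adjusted p = 0.0609).

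The third comparison set aged injury against young sham, which shares its libraries with the other comparisons and joins age, sex of the pools and injury. Of the 10 markers, 3 were higher (Glul, Entpd2 and Gfap), 3 were lower (Gja1, Ednrb and Apoe) and 4 did not pass, where 13.1% of all rows were called, 8.20% higher and 4.89% lower (1444 and 860 rows, or 1028 and 1674 at equal library medians). The groups did not overlap for 8 markers, against 35.4% of rows. Gfap was higher by 2.09 on the log2 scale (SE 0.191, limma adjusted p = 0.000676), with 168, 107 and 120 recovered fragments in aged injury and 20, 20 and 28 in young sham. Ednrb had a log2 difference of -1.08 (adjusted p = 0.000707), Gja1 of -0.68 (adjusted p = 0.0104), Entpd2 of 0.61 (adjusted p = 0.0044) and Glul of 0.36 (adjusted p = 0.0116). Apoe had -0.34 (adjusted p = 0.0240), a call kept in 3 of the 9 fits with 1 library left out. It was also lost after quantile normalization (-0.15, adjusted p = 0.340), without a filter on low values (adjusted p = 0.103) and with these 2 groups alone (adjusted p = 0.0677). With the Y-linked level as a covariate limma called 0 of the 10 markers (3 at an unadjusted p under 0.05), in a fit that again rests largely on aged sham replicate 1. Fabp7 was at 103 to 150 FPKM in aged injury, below 200 to 263 FPKM in young sham, with a log2 difference of -0.79 (adjusted p = 0.0820, but 0.0202 without aged sham replicate 1, 0.0283 with array weights and 0.0418 with these 2 groups alone). Of the 14 reactive glia genes 11 were higher, among them Vim, Stat3 and Cd44, by 0.56, 0.57 and 0.67. The calls of Glul and Gja1 were lost without young sham replicate 1 (adjusted p = 0.0502 each), and that of Glul without aged injury replicate 3 (adjusted p = 0.0521) or at equal medians (0.0513). Of the pathway lists, glutamate and glutamine had 4 genes higher and 8 not called, lipoproteins and sterol export 6 higher, 2 lower and 8 not called, extracellular nucleotides 4 higher, 1 lower and 15 not called, and cadherins and adhesion 4 lower and 8 not called. Connexins and pannexins had 0 higher, 3 lower (Gja1, Gjc3 and Gjd2) and 7 not called. With 1 library left out, Gjd2 stayed called in 7 of 9 fits and Gjc3 in 5. In endothelin signalling the ligand gene Edn1 was higher by 0.85 (adjusted p = 0.0291) while its receptor gene Ednrb was lower. The cadherin genes Cdh6, Cdh10, Cdh11 and Cdh20 were lower by log2 differences of -0.73, -0.56, -0.33 and -0.54, and Cdh19 was at 0.19 (adjusted p = 0.312). Leaving out each library in turn, Edn1, Cdh10 and Cdh20 stayed called in 4 of 9 fits, Cdh11 in 5, Cdh6 in 6, and Vim, Stat3 and Cd44 in 9.

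The mean of the marker list hid these opposite differences. Averaged over the 10 genes, the log2 level relative to the young mean was -0.01 to 0.08 in aged injury, -0.06 to 0.02 in aged sham and -0.12 to 0.11 in young sham. The summed level was 1198 to 1346 FPKM in aged injury, 1449 to 1602 FPKM in aged sham and 1570 to 1628 FPKM in young sham, and Apoe made up most of it.

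**Figure D4:**
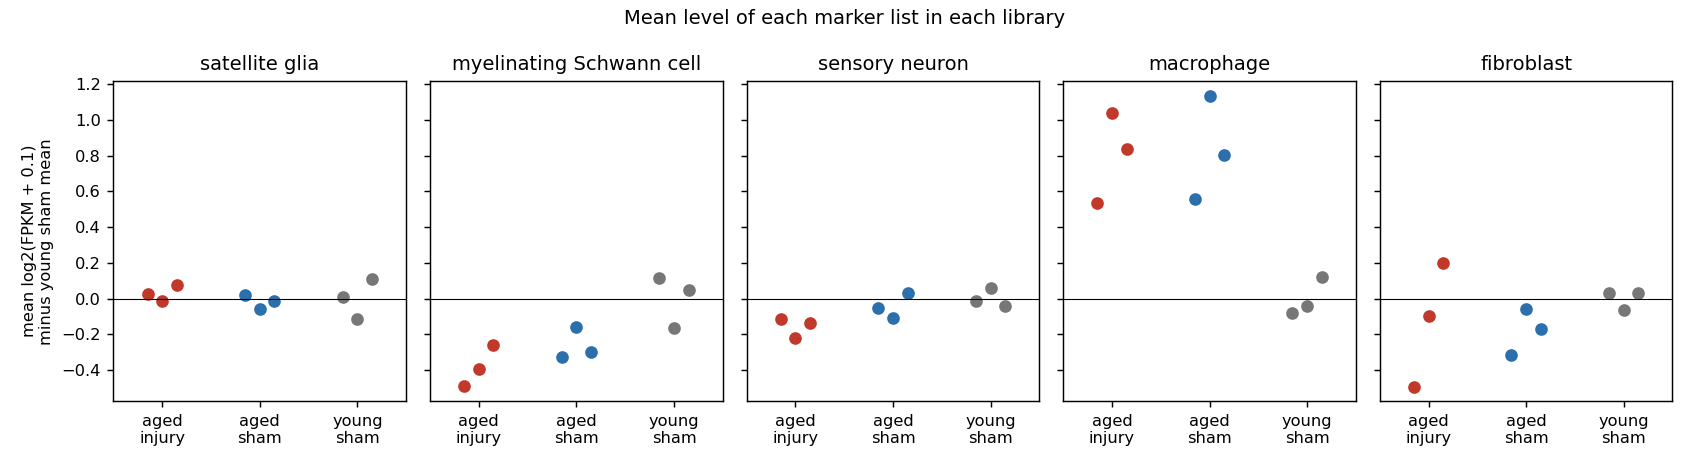
Mean log2(FPKM + 0.1) of each marker list relative to its young sham mean, in each library of the 3 groups. The satellite glia list stays between -0.12 and 0.11 in all 9 libraries, while macrophage genes are above 0.5 in every aged library, and myelinating Schwann cell genes are at -0.49 to -0.26 in aged injury, -0.33 to -0.16 in aged sham and -0.16 to 0.11 in young sham.

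Markers of other cells moved with the groups. Of 14 macrophage genes, which share with the markers the use of Apoe, 7 rose with age and 7 did not pass, with a median log2 difference of 0.95. Their summed level was 193 to 389 FPKM in aged sham and 112 to 128 FPKM in young sham, while Apoe had a log2 difference of -0.04 (0.21 after quantile normalization). After injury 1 macrophage gene, Mrc1, rose and 13 did not pass, and the summed level in aged injury was 182 to 316 FPKM. Of 15 genes of myelinating Schwann cells, 5 fell with age and 10 did not pass. Their summed level was 1989 to 2129 FPKM in aged sham and 2924 to 3387 FPKM in young sham. After injury Gjb1 fell and 14 did not pass, at 1750 to 2038 FPKM in aged injury. Of 8 genes of non-myelinating Schwann cells, which express Gfap and Cdh19 too, Sox2 fell with age and Chl1 rose after injury. The summed level of these 8 was 385 to 417 FPKM in aged injury, 384 to 429 FPKM in aged sham and 334 to 389 FPKM in young sham.

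Pigment cell markers bear on Ednrb, which these cells also express. Of 10 such genes, 4 passed the filter, and Tyrp1 had 0.769, 0.729 and 0.577 FPKM in aged sham and 7.29, 4.61 and 7.03 FPKM in young sham (log2 difference -2.998, adjusted p = 0.000896). The other 3 did not pass, and their means were higher in aged than in young sham. These were 14.3 and 11.3 FPKM for Kit, 0.924 and 0.840 for Mitf, and 0.525 and 0.462 for Slc24a5. The median log2 difference of the 4 tested genes was 0.12. The defining gene Tyr was at 0 in all 9 libraries, and Dct, Pmel and Mlana were at most 0.264 FPKM in any library. The summed level of the 10 was 14.8 to 18.1 FPKM in aged sham and 17.7 to 21.6 FPKM in young sham, most of it Kit, which sensory neurons express as well. Of 9 endothelial genes, Cldn5 rose with age by 0.38 and fell after injury by 0.55 on the log2 scale, and the other 8 did not pass in either comparison. The summed endothelial level was 44.6 to 50.9 FPKM in aged injury, 46.0 to 50.4 FPKM in aged sham and 40.4 to 47.0 FPKM in young sham. For fibroblasts, which use Gja1, limma called 0 of 9 genes with age (1 at an unadjusted p under 0.05), and the summed level was 275 to 338 FPKM in aged sham and 288 to 339 FPKM in young sham. Dcn made up most of that sum, and the median log2 difference of the list was -0.07. Col3a1 had 7.79, 9.70 and 9.65 FPKM in aged sham and 15.4, 14.6 and 17.2 FPKM in young sham, with no overlap. It was called lower in 4 of 10 alternatives and in 1 of 9 fits with 1 library left out. The mean log2 level of the list was -0.31 to -0.06 in aged sham and -0.06 to 0.03 in young sham. Of 15 sensory neuron genes, the transcription factor genes Pou4f1 and Isl1 fell with age and Isl1 fell again after injury. Among 7 pericyte and smooth muscle genes, Rgs5 fell with age (-0.49, adjusted p = 0.0331) and rose after injury (0.46, adjusted p = 0.0271). The central glia genes Mog and Mobp were at most 0.180 FPKM, Opalin was at 0 in each library, and limma called 0 of the 4 tested genes of that list with age (0 at an unadjusted p under 0.05) and 0 after injury (1). With each library left out in turn, the age calls of Cldn5, Rgs5, Pou4f1 and Isl1 stayed in 0, 3, 5 and 3 of 9 fits, and the injury calls of Cldn5, Rgs5, Isl1, Chl1 and Mrc1 in 6, 3, 2, 5 and 1. The part of these cells in the differences of the satellite glia markers was not tested.

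For the 5 markers called in either of the first 2 comparisons, the genes with the closest profile were sought among 13664 others with a mean of at least 1 FPKM, by the root mean square distance of the centred log2 values over the 9 libraries. The profile closest to Ednrb was that of Prss35, a serine protease family gene, at a distance of 0.0448, against 0.132 for the next, Itm2a, and 0.136 for Pou4f2. Prss35 had 9.82, 10.4 and 9.46 FPKM in aged injury, 11.5, 10.4 and 10.4 FPKM in aged sham, and 23.0, 17.7 and 23.9 FPKM in young sham. Its lowest young library was replicate 2, as for Ednrb. Closest to Glul were Zfp664, Phactr2 and C2cd2 (0.0470 to 0.0585), and closest to Gja1 were Klhl23, Smpx and Col28a1 (0.119 to 0.139). Entpd2 was followed by Gm12168, S100a6 and Ube2s (0.0857 to 0.0965). Gfap was followed by Ms4a6d, Xdh and Tnfrsf1b (0.312 to 0.368). The distance grows with the spread of the gene itself, and the SD of the log2 values over the 9 libraries was 0.948 for Gfap, 0.527 for Ednrb, 0.402 for Gja1, 0.360 for Entpd2 and 0.208 for Glul, so distances are not compared between markers. These distances describe the 9 libraries, which fall into 3 groups, and carry no test.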

How the data were processed

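The deposited table gives FPKM computed by the authors, per the file headers and values, and the build was mm10, per the submitters' processing notes, which name TopHat2 2.0.12, HTSeq 0.6.0 and edgeR 3.8.6 without their roles. The sources used here do not give the annotation release, strand handling or scaling. Mixed in the table are 38392 Ensembl rows and 7512 transcript identifiers, so reads of a locus listed under both could be split. Symbols and gene positions came from GENCODE M21, which matched 16841 of the 17601 tested rows (95.7%), and promoter sequences from RefSeq.

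The filter kept rows averaging 0.2 FPKM or more across the 9 libraries, and limma 3.58.1 (R 4.3.3) tested them on log2(FPKM + 0.1) with a variance trend, all 3 groups in 1 fit, two-sided, with Benjamini-Hochberg adjustment over 17601 rows. All 10 markers passed the filter. This scale understates changes of low genes. The script was tested on simulated data. The p-values measure the spread between pools. Alternatives changed the pseudocount, filter, scaling, weights, libraries fitted, replicate block or, chosen after seeing the data, a Y-linked covariate. FPKM hold no totals, but values were whole multiples (within 0.01) of a step per gene and library, and 1 fragment was worth 0.816 to 1.18 times its FPKM in young sham replicate 1.

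The markers, lists and motifs were chosen with earlier results of these data known. Named are the 10 markers, up to 4 called genes of smallest p per list (or up to 2 where none was called), and further list members and check genes where a result turned on them, which were chosen after their values were seen.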

Additional observations from a re-analysis of the deposited data

How the results depend on the processing

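None of the markers called with all libraries changed direction under the alternatives run; of the uncalled ones, Fabp7 turned upward against young sham with the Y-linked covariate, to log2 differences of 0.86 in aged sham and 0.67 in aged injury, and Apoe ranged from -0.09 to 0.21 between aged and young sham, highest after quantile normalization. Kcnj10, Cdh19 and Slc1a3 also took both signs: Kcnj10 from -0.10 to 0.04 and Cdh19 from -0.13 to 0.09 in aged sham, and Kcnj10 from -0.05 to 0.09, Cdh19 from -0.02 to 0.26 and Slc1a3 from -0.25 to 0.02 in aged injury, each against young sham. Called markers between aged and young sham numbered 4 with all libraries, 2 to 4 with 1 library left out, 0 with the 2 groups alone (4 at an unadjusted p under 0.05) and 0 with the Y-linked level as a covariate (5). Between aged injury and aged sham they numbered 1, then 0 to 1 with 1 library left out, 0 with the 2 groups alone (3 at an unadjusted p under 0.05), 2 with a pseudocount of 1 and 2 with a mean of at least 1 FPKM. Between aged injury and young sham they numbered 6, then 3 to 7 with 1 library left out and 0 with the covariate (3 at an unadjusted p under 0.05).

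Over all rows, 707 were called between aged and young sham (445 higher, 262 lower), but 278 higher and 535 lower at equal library medians and 388 and 509 after quantile normalization. The count was 239 without a filter, 31 with the 2 groups alone, 2020 with array weights, 5 with the covariate and 23 (without aged sham replicate 3) to 1536 (without young sham replicate 2) with 1 library left out. Between aged injury and aged sham it was 723, of which 432 were higher, then 302 with the 2 groups alone and 151 to 740 with 1 library left out; at equal medians it was 283 higher and 292 lower. Between aged injury and young sham it was 2304 (1444 higher, 860 lower), then 1028 higher and 1674 lower at equal medians, 1168 and 1241 after quantile normalization, 3755 with array weights, 17 with the covariate and 869 to 2365 with 1 library left out. The causes were not tested, and the smaller fits also held fewer samples. The covariate closely follows the groups apart from aged sham replicate 1, so its low counts cannot tell sex from age.

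With the replicate number as a block, calls numbered 101, 273 and 1561 over all rows in the 3 comparisons, and 4, 0 (3 at an unadjusted p under 0.05) and 5 among the markers, with Glul at an adjusted p of 0.0522 after injury and Apoe at 0.0667 between aged injury and young sham. The labels do not say that a number marks shared animals or batches. Deviations of same-numbered libraries correlated at 0.245, 0.27 and 0.0625 across genes between aged injury and aged sham, where 6 of 6 libraries were closest to their own number, and at -0.0667 to -0.0195 in the pairings with young sham. Depth limits Gfap most, at 20 to 28 recovered fragments in young sham.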
